A study of Mus musculus with 4 samples.

Results

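The globin genes followed here are the 7 that encode the chains of mouse hemoglobin, chosen by symbol from the 32285 genes of the count tables. There are 3 of embryonic type, Hba-x, Hbb-y and Hbb-bh1, and 4 of adult type, Hba-a1, Hba-a2, Hbb-bt and Hbb-bs, and all 7 symbols were found. They were measured in Visium sections 8 µm thick, in which barcoded spots on a slide capture the polyadenylated RNA of the tissue above them. The series holds 1 section of a wild-type (WT), untreated mouse embryo at E13.5, 1 at E16.5, and 2 sections of WT, untreated esophagus from neonates at P0 (P0 replicates 1 and 2). The labels give no strain, and nothing says how many animals stand behind the P0 sections. A p-value at P0 thus covers these 2 sections only, and its error is drawn mostly from the spread of other genes. The embryo stages have 1 section each, and no stage comparison was tested.

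Hemoglobin is a tetramer of 2 alpha-like and 2 beta-like chains, and both gene clusters switch from embryonic to adult genes during development. The first red cells, called primitive, arise in the yolk sac, circulate with their nuclei, and express the embryonic genes. Later, definitive red cells that express the adult genes are made in the fetal liver. Mature red cells carry globin transcripts through every vessel, so a spot can hold globin RNA without making blood.

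The alpha-like genes lie on chromosome 11 in the order Hba-x, Hba-a1, Hba-a2, and the beta-like genes on chromosome 7 (RefSeq, GRCm38.p6). The 150 bases before the annotated start are shown for 5 of the 6 genes that matched a promoter entry, because the levels of these genes parted between stages and between spots. Capitals mark 4 short motifs, searched on both strands and spelled out after the sequences. Hba-x lies at chr11:32276450-32276599 (+), Hbb-y at chr7:103853208-103853357 (-), Hba-a1 at chr11:32283522-32283671 (+), Hbb-bs at chr7:103827929-103828078 (-) and Hbb-bt at chr7:103813924-103814073 (-).
Hba-x: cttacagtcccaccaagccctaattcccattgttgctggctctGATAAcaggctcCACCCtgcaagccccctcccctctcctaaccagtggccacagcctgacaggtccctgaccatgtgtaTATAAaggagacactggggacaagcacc
Hbb-y: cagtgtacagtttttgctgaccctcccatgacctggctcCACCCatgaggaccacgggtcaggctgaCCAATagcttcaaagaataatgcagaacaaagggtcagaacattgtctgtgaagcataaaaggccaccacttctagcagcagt
Hba-a1: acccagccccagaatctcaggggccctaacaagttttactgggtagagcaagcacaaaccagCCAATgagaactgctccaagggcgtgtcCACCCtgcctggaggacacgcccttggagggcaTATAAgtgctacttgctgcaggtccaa
Hbb-bs: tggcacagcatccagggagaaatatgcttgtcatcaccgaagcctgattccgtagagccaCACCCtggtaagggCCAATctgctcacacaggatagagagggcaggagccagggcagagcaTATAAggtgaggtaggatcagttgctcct
Hbb-bt: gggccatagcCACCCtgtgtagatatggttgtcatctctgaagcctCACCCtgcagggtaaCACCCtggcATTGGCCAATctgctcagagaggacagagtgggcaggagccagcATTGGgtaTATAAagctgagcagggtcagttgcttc
CACCC, the letters bound by Krüppel-like factors such as Klf1, was in 6 of 6 windows and in 37.4% of the 32851 windows of the same length in the table. CCAAT was in 5 of 6 (24.5% of all), missing in Hba-x. TATAA was in 5 of 6 (14.2% of all), missing in Hbb-y. GATAA, the core of the GATA factor motif, was in 1 of 6 (13.3% of all), in Hba-x. In Hbb-bt a reverse-strand match to CCAAT lies directly before a forward one, and no matches overlap in the windows shown. The windows of Hba-a1 and Hba-a2 were identical over 147 of 147 aligned bases, and those of Hbb-bs and Hbb-bt over 115 of 144 (79.9%). Hba-a1 and Hba-a2 are near-identical copies, as are Hbb-bs and Hbb-bt, so the division of counts within each pair is uncertain, whereas their sum is less affected. Hbb-bs and Hbb-bt are the adult pair of the reference haplotype. These matches are descriptions of letters, not of sites in use.

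Spots with at least 500 unique molecular identifiers (UMIs, each standing for 1 captured RNA) were kept. They numbered 3220 at E13.5, 3588 at E16.5, and 363 and 264 at P0, with section medians of 25465 to 29289 UMIs per spot. Globin genes held 3011956 UMIs at E13.5, 3.05% of all UMIs, and 5347341 at E16.5, 5.05%. In the P0 esophagus they held 8855 and 5698 UMIs, 0.0863% and 0.0775%. The sections hold different organs: 12 of 12 liver markers had a UMI in at least 50% of the liver-rich spots at E13.5 but 1 of 12 at E16.5, so stage and the tissue cut cannot be told apart. In every spot, fewer red cells and less globin RNA per cell cannot be told apart either.

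The embryonic genes made up 20.1% of globin UMIs at E13.5 (606115 UMIs, exact binomial 95% interval 20.1 to 20.2%). At E16.5 their share was 0.0178% (951 UMIs, 0.0167 to 0.0190%). P0 replicate 1 held 1 embryonic UMI, from Hbb-y, a share of 0.0113% (interval up to 0.0629%), and P0 replicate 2 held none, where 3 UMIs would be a share of 0.0527%. The intervals cover counting error only. A difference between E16.5 and P0 was not detectable at the P0 depth.

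**Figure D1:**
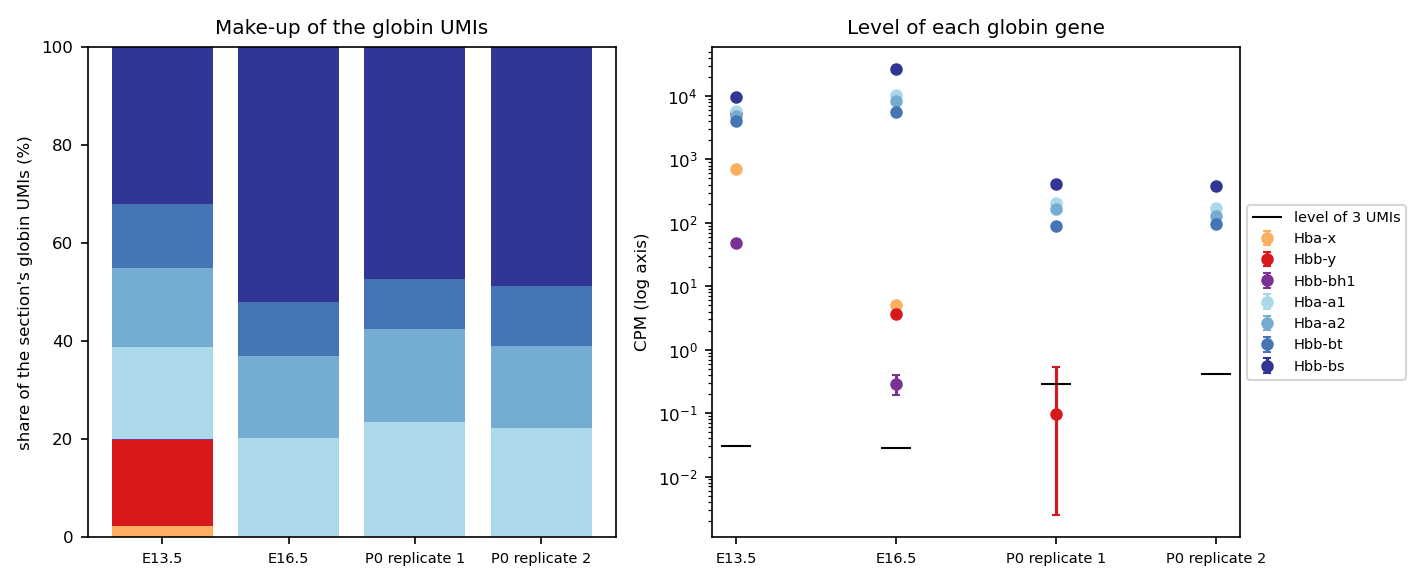
Left, bars stack the share of each section's globin UMIs (%) taken by each of the 7 genes. Right, points give each gene's level in counts per 1000000 UMIs (CPM, log axis) with exact Poisson 95% intervals. Black dashes mark the level of 3 UMIs, and genes with 0 UMIs are not drawn. The 3 embryonic genes (orange, red, purple) are higher in the E13.5 section than in the others. At E13.5 the Hbb-y point lies behind the adult points. Hbb-bs (dark blue) is the highest gene in each section.

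Levels are counts per 1000000 UMIs of the section (CPM), with no scaling by gene length. Hbb-y, the epsilon-type beta-like chain of primitive red cells, stood at 5390 CPM at E13.5, 3.59 CPM at E16.5, 0.0975 CPM in P0 replicate 1 and 0 in P0 replicate 2. Hba-x, the zeta-type embryonic alpha-like chain, stood at 706 CPM at E13.5 and 5.11 CPM at E16.5, with 0 UMIs in both P0 sections, where 3 UMIs would be 0.292 and 0.408 CPM. Hbb-bh1, the other embryonic beta-like chain, stood at 48.9 CPM at E13.5 and 0.283 CPM at E16.5, with 0 UMIs at P0. All 3 were highest at E13.5, and for Hbb-bh1 the P0 depth could not show a level below that of E16.5. On the log2(CPM + 0.5) scale the E16.5 section lay below E13.5 by 1318-fold for Hbb-y (log2 ratio -10.36), 126-fold for Hba-x (-6.98) and 63.0-fold for Hbb-bh1 (-5.98). Among 18900 genes with at least 20 UMIs, 4.72% were at least 2-fold lower, and 3 of the 7 globins were.

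The adult genes moved the other way between the embryo sections. Hbb-bs, the more abundant adult beta chain, stood at 9772 CPM at E13.5, 26287 CPM at E16.5, and 408 and 377 CPM at P0. Hba-a1 stood at 5722, 10260, 202 and 174 CPM, and Hba-a2, its near-identical alpha copy, at 4882, 8450, 165 and 129 CPM. Hbb-bt, the lesser adult beta chain, stood at 4012, 5520, 87.7 and 95.3 CPM. Each adult gene was highest at E16.5 and lowest in the esophagus. There the summed globin levels of 863 and 775 CPM rest on few spots: without the 10 richest spots of each section they were 487 and 312 CPM. Hbb-bs alone was at least 2-fold higher at E16.5 than at E13.5 (2.69-fold, log2 ratio 1.43), as were 10.5% of all genes. Hba-a1, Hba-a2 and Hbb-bt were 1.79-fold, 1.73-fold and 1.38-fold higher.

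The make-up within each type differed too. Hbb-bt was 29.1% of adult beta UMIs at E13.5, 17.4% at E16.5, and 17.7% and 20.2% at P0 (18.9% ± 1.76, SD, n = 2). Hba-a1 was 54.0% and 54.8% of adult alpha UMIs in the embryos and 55.1% and 57.4% at P0, a range of a few points. Alpha-like UMIs per beta-like UMI were 0.588 in both embryo sections, and 0.740 and 0.640 at P0. Among the embryonic genes Hbb-y led at E13.5, with 0.131 Hba-x UMIs per Hbb-y UMI, whereas at E16.5 Hba-x led, with 1.42 per Hbb-y UMI. Hbb-bh1 was 0.899% of embryonic beta UMIs at E13.5 and 7.32% at E16.5 (30 of 410 UMIs, interval 4.99 to 10.3%). Among beta-like UMIs alone the embryonic share went from 28.3% (E13.5) to 0.0122% (E16.5), and among alpha-like UMIs alone from 6.24% to 0.0273%. The beta-like share was thus the higher at E13.5 and the alpha-like share at E16.5.

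Within the E13.5 section the embryonic share was uneven. Over 3207 spots with at least 20 globin UMIs it ran from 0.176% to 66.1%, with a median of 26.1% and quartiles of 19.5% and 31.9%. The share was under 5% in 134 spots and over 50% in 22. The SD between spots was 9.94 points, against 2.81 points from counting alone. A spot's share correlated with the mean share of its grid neighbours (r = 0.75 over 3204 spots), as did its globin level (r = 0.92 over 3217), as a description of spots that share a section. Low shares lay together: 117 of the 134 spots under 5% were within 3 grid steps of a spot rich in liver markers.

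**Figure D2:**
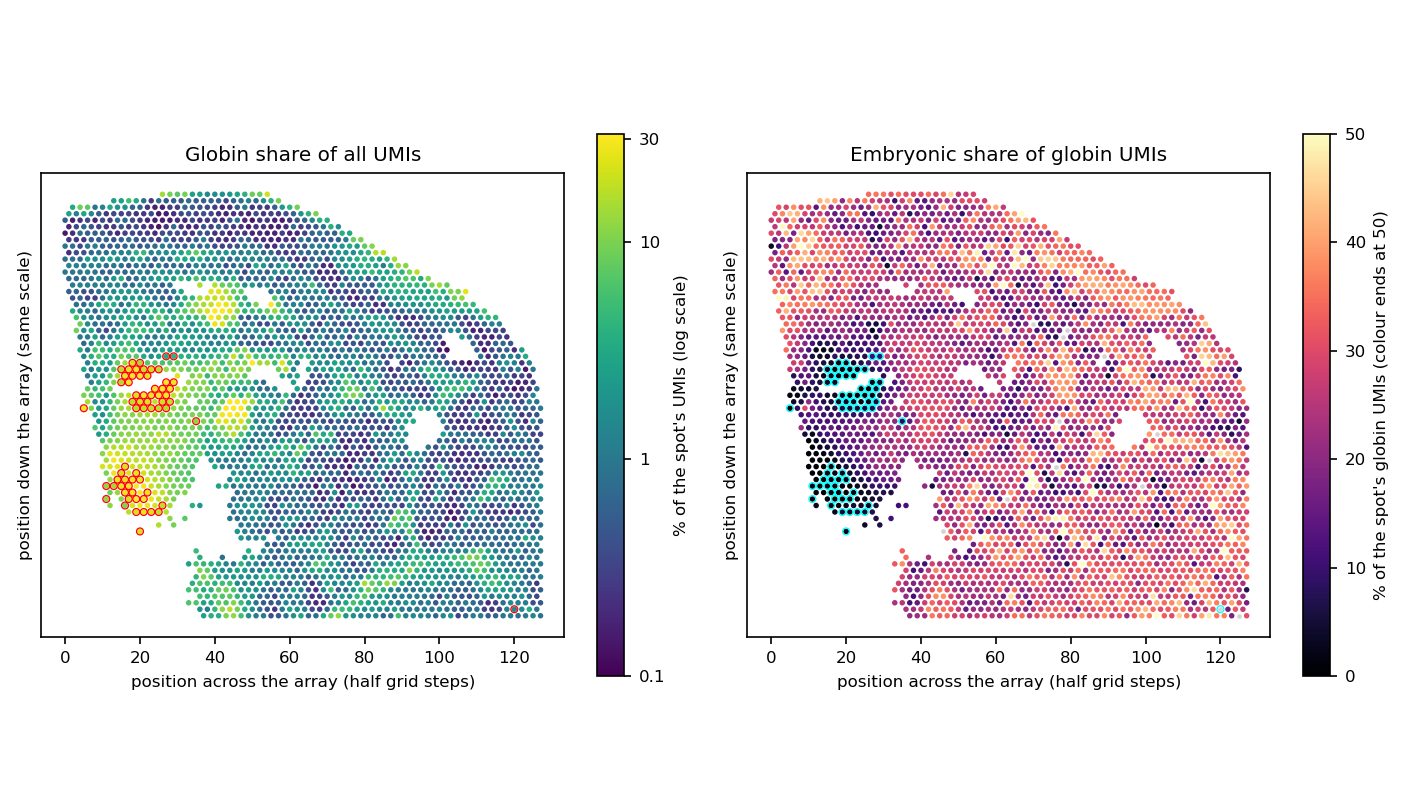
The E13.5 section, with each point a spot at its grid position on the slide; left, colour gives the globin share of the spot's UMIs (log scale, %), right, the embryonic share of its globin UMIs (%, colour ends at 50, grey under 20 globin UMIs). Circles mark the 64 liver-rich spots, most of which lie in 2 patches that are bright on the left and dark on the right, whereas other bright areas on the left are not dark on the right.

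The section was divided by marker genes of other tissues into classes of 64 spots, the highest 2% by each list. The 64 liver-rich spots, led by markers such as Alb and Afp, had an embryonic share of 1.89% (interval 1.86 to 1.93%) while globins were 24.99% of their UMIs. Of the other 11 classes that passed the marker check, the granulocyte-rich one had 2.88% and the platelet- and megakaryocyte-rich one 5.48%; 42 of 64 spots in each lay within 3 grid steps of a liver-rich spot. The remaining 9 classes ranged from 22.6% (smooth muscle-rich) to 28.8% (macrophage-rich). Heart-rich spots had 27.4% with globins at 7.44% of UMIs, and blood vessel-rich spots had 27.4% with globins at 4.05%. Neural-rich spots had 25.01% with globins at 0.477%, the lowest level of the 12 classes, so the share varied less than the level among these 9.

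**Figure D3:**
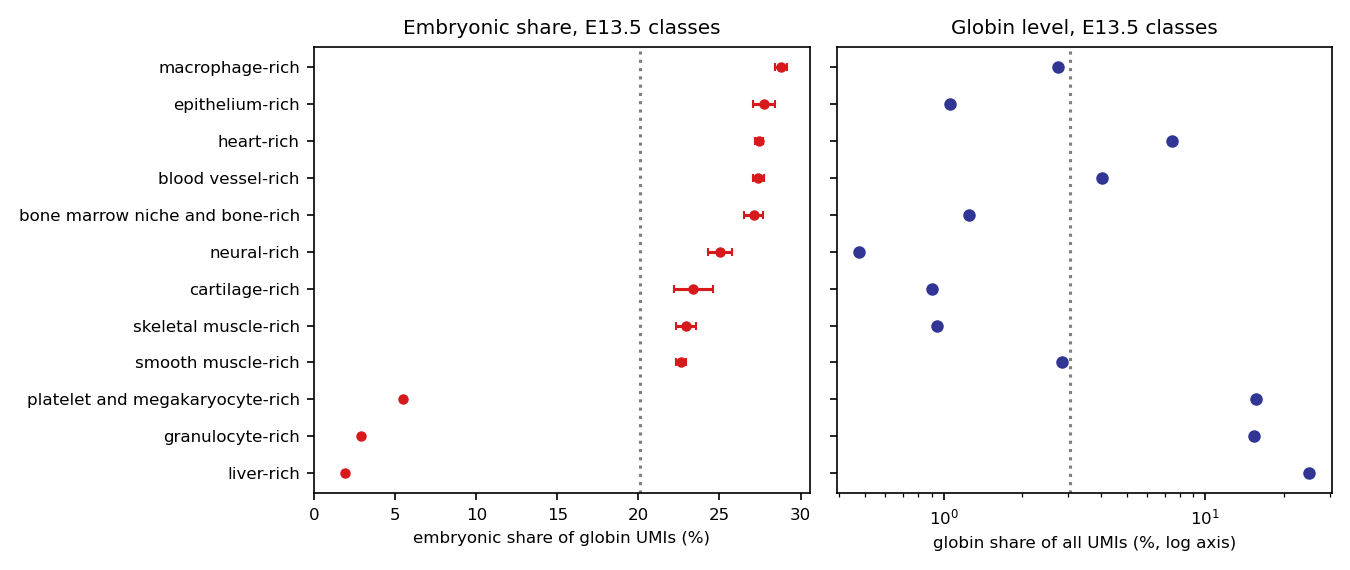
Each row is an E13.5 class of 64 spots; left, points give the embryonic share of globin UMIs (%) with exact binomial 95% intervals, right, the globin share of all UMIs (%, log axis), and dotted lines mark the whole section (20.1% and 3.05%). The liver-, granulocyte- and platelet-rich classes sit at the low end of the left panel (1.89% to 5.48%) and the high end of the right.

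Member by member, the liver-rich spots differed from the rest of the section by type. Hbb-bt stood at 49840 CPM in them and 3152 CPM elsewhere (15.8-fold), Hbb-bs at 111716 and 7860 CPM (14.2-fold). Hba-a2 stood at 40611 and 4212 CPM (9.64-fold), and Hba-a1 at 42985 and 5023 CPM (8.56-fold). The 4 adult genes were all over 2-fold higher, against 6.72% of 17207 genes at that fold, with no replicate. Hbb-y was lower in the liver-rich spots, at 4102 against 5414 CPM (1.32-fold), and so was Hba-x, at 454 against 710 CPM (1.56-fold). Neither reached the 2-fold lower level that 41.9% of genes did, and the median log2 ratio of all genes was -0.79. These differences depend on the scaling: with globin UMIs left out of the denominator, which raises every log2 ratio by 0.38, Hbb-y stood at 5468 against 5561 CPM and Hba-x at 605 against 729.6 CPM. Hbb-bh1 stood apart from the other embryonic genes: it was 178 CPM in liver-rich spots and 46.5 CPM elsewhere, 3.81-fold higher. It made up 4.17% of embryonic beta UMIs in liver-rich spots, the highest of the 12 classes. The 9 classes other than the liver-, granulocyte- and platelet-rich ones had 0.613% to 1.60%. The 1.60% was in skeletal muscle-rich spots, of which 7 of 64 lay within 3 grid steps of a liver-rich spot.

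The embryonic share was higher farther from the liver-rich spots. It was 1.89% in them, 4.78% at 1 grid step, 8.99% at 2, 12.97% at 3, 19.9% at 4, 24.5% at 5 and 27.8% at 6 steps, and 27.7% over the 2738 spots at 6 steps or more. Adult globins went over this range from 245151 CPM to 48622 CPM, while embryonic globins went from 4734 to 18740 CPM, their highest level at any distance. Over all spots at 6 steps or more, adult globins stood at 15014 CPM and embryonic globins at 5748 CPM. Alb, the albumin gene of hepatocytes, went from 5614 to 98.0 CPM over the same steps, and its part in the gradient was not tested. The values rest in part on 4 liver-rich spots that had no other within 2 steps. Without them the share was 3.97% at 1 step, 14.3% at 4, 19.98% at 6 and 26.7% at 8 steps. Embryonic globins then stood at 9645 CPM at 6 steps and at 30205 CPM at 9, so their high point moved. Adult globins rose again in that setting, from 37754 CPM at 5 steps to 79066 CPM at 9. Hbb-bt as a share of adult beta UMIs was 30.8% in the liver-rich spots and 27.2% at 6 steps or more, above the 17.4% of the E16.5 section in both.

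**Figure D4:**
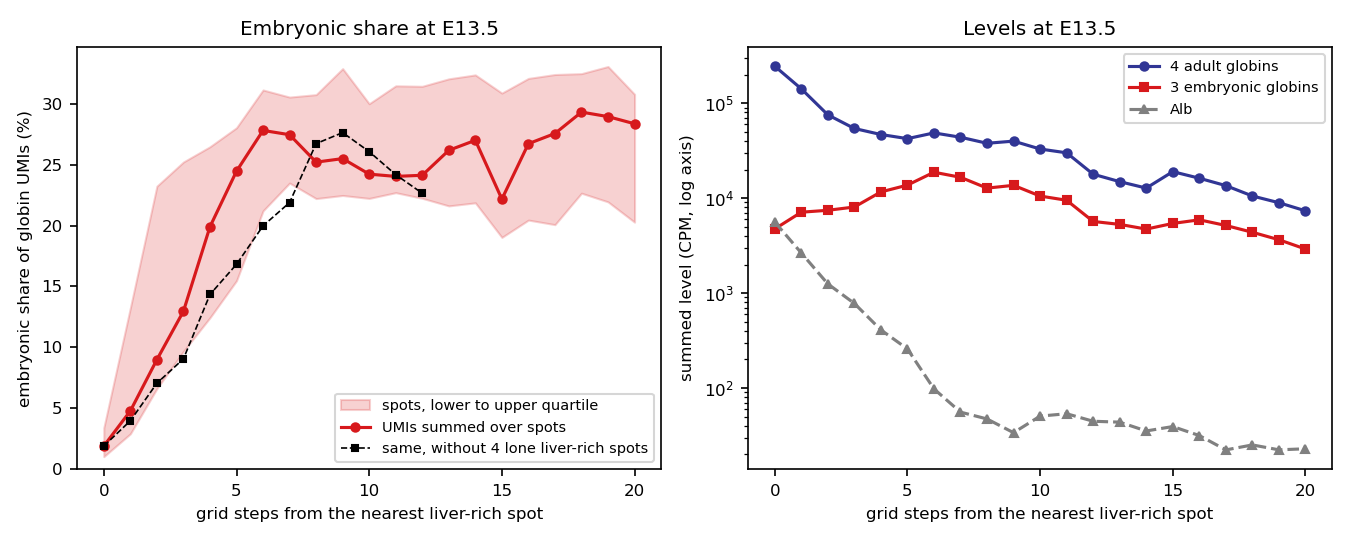
E13.5 spots by grid steps from the nearest liver-rich spot; left, the embryonic share of globin UMIs (%) over summed UMIs (red), its quartiles over spots (shaded), and the same sum without 4 lone liver-rich spots (black), right, summed levels of adult globins, embryonic globins and Alb (CPM, log axis). The share goes from 1.89% to 27.8% within 6 steps, while embryonic globins go from 4734 to 18740 CPM and Alb from 5614 to 98.0 CPM. Adult globins go from 245151 to 42309 CPM at 5 steps and stand at 48622 CPM at 6.

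Globin level alone did not order the share. Among spots at 6 or more steps, ranked by globin share of UMIs into 10 bins of 273 or 274, the embryonic share was 22.5% in the lowest bin (globins 0.216% of UMIs), 30.4% in the sixth (1.10%) and 26.9% in the highest (11.02%). The median number of UMIs per spot was 26288 in liver-rich spots and 30026 at 6 or more steps.

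Other genes of red cell formation were described from 4 lists. In the liver-rich spots at E13.5, 12 of 14 heme synthesis genes were at least 2-fold higher than elsewhere (median log2 ratio 2.55, against -0.79 over all genes). The largest was Slc25a37, the mitochondrial iron importer mitoferrin 1 (843 against 41.6 CPM), and then Cpox, a late heme enzyme (314 against 19.8 CPM). Slc25a38 (51.7 against 22.0 CPM) and Uros (67.7 against 22.5 CPM) were the smallest of the 12. Of 16 erythroid regulators 13 were higher and 1 lower (median 3.04): Gata1 (101 against 2.69 CPM) and Klf1 (172 against 6.08 CPM), master regulators of red cell genes, led. Gata2, which acts earlier in blood progenitors, was the 1 lower gene (2.75 against 11.9 CPM), and Sox6 the smallest of the 13 (36.9 against 17.9 CPM). Of 18 membrane and skeleton genes 16 were higher (median 4.19), led by Icam4 (101 against 2.52 CPM) and Rhag (139 against 3.92 CPM), with Epb41 (160 against 62.3 CPM) and Slc2a1 (220.2 against 73.5 CPM) the smallest. Of 18 metabolism and maturation genes 11 were higher (median 2.73), led by Hemgn (237 against 7.08 CPM) and Trim10 (146 against 5.74 CPM), and Fam210b (139 against 24.3 CPM) was among the smallest. Bcl11a, known as a repressor of embryonic and fetal globin genes, stood at 53.4 CPM in liver-rich spots and 81.5 CPM elsewhere; it is also expressed in neurons. Markers of other blood cells moved with these lists: 9 of 9 granulocyte genes (median 2.37), 7 of 8 platelet and megakaryocyte genes (median 2.51) and 3 of 9 macrophage genes (median 0.07) were at least 2-fold higher, and their part was not tested.

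From E13.5 to E16.5 the same lists held genes of both directions. Of all genes 10.5% were at least 2-fold higher and 4.72% at least 2-fold lower. Only the E13.5 section held a liver class, and its part in these differences was not tested. Erythroid regulators at least 2-fold lower numbered 7 of 16, with 1 higher (median log2 ratio -0.92, against -0.12 over all genes): Klf1 went from 9.14 to 0.671 CPM and Gfi1b from 3.04 to 0.0756 CPM, while Myb, a progenitor factor, went from 3.396 to 9.74 CPM. Of 18 membrane and skeleton genes 9 were lower and 2 higher (median -1.12), with Ermap from 8.54 to 0.340 CPM, Rhag from 6.42 to 0.255 CPM, and Aqp1 and Ank1 as the 2 higher. Of 14 heme synthesis genes 2 were higher and 1 lower (median -0.20), near the shares of all genes. Alas2, the red cell enzyme that starts heme synthesis, was higher (37.0 to 89.4 CPM), as was its housekeeping form Alas1 (26.6 to 114.5 CPM), and Cpox was lower (25.3 to 11.04 CPM). Of 18 metabolism and maturation genes 2 were higher, near the share of all genes, and 3 lower (median -0.08). Isg20 went from 1.40 to 26.6 CPM and Tfrc, the transferrin receptor, from 41.3 to 131 CPM. Hemgn went from 11.3 to 0.737 CPM and Trim10 from 8.33 to 1.95 CPM.

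The genes whose levels over spots were most like the globins were found by Pearson correlation of log(1 + UMIs per 10000), as a description of spots that share a library. At E13.5 (3220 spots, 13774 genes) the adult globins were most like Alas2 (r = 0.75), Car2 (0.69), Slc4a1 (0.67), Gpx1 (0.67) and Blvrb (0.64). The embryonic globins were less closely matched, by Gm42418 (0.52), Alas2 (0.47), mt-Nd3 (0.45), Myl9 (0.45) and Col18a1 (0.45). Their share of globin UMIs (3207 spots) correlated lowest with the hepatocyte genes Afp (-0.56), Alb (-0.56), Apoa2 (-0.55), Serpina6 (-0.53) and Apoa1 (-0.53). It correlated highest with Tmsb10 (0.38), Nrep (0.36), Actg1 (0.35), Marcks (0.35) and Tuba1a (0.34). At E16.5 (3588 spots) the adult globins were most like Alas2 (0.78), the atrial myosin gene Myl7 (0.62), Tent5c (0.61) and Ube2l6 (0.61). The embryonic globins there were most like Alas2 (0.34), Myl7 (0.33), Slc25a37 (0.31), Myh6 (0.30) and Tent5c (0.29), from sparse counts. Correlations with the embryonic share at E16.5 were all between -0.08 and 0.14 (Ltb highest, mt-Atp6 lowest) and are no finding.

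At E16.5 the 951 embryonic UMIs were thinly spread. An embryonic UMI was seen in 398 of 3588 spots (11.1%, against 3219 of 3220 at E13.5); with each spot thinned to 10000 UMIs, and 450 and 166 shallower spots left out, it was 5.51% against 99.9%. Of 3555 spots with at least 20 globin UMIs, 3158 had none, and the highest share was 4.17%. The 42 spots with at least 5 embryonic UMIs held 41.1% of them. Hbb-y was seen in 34.8% of the 267 spots with Hba-x and in 3.67% of the others. The spots with Hba-x were deeper (median 39831 against 25481 UMIs) and richer in globin (15.7% against 3.78% of UMIs), and the part of either in this overlap was not tested. Among 11 classes of 72 spots, heart-rich spots had the most globin (16.6% of UMIs) but an embryonic share of 0.00846% (56 UMIs). Lung-rich spots had 0.0520% (27 UMIs, interval 0.0342 to 0.0756%), with a share of 3.13% in their highest spot. An E16.5 spot of that share held 13 embryonic UMIs in 416 globin UMIs, so a single spot may hold much of the 27. The interval treats UMIs as independent and does not cover such clustering. Thymus-rich spots had 0.0673% (6 UMIs, interval 0.0247 to 0.146%). Neural-rich spots had 0 of 17586 globin UMIs (exact interval up to 0.0210%, which includes the section's share) and bone-rich spots 0 of 24648 (up to 0.0150%). Hbb-bt as a share of adult beta UMIs ran from 12.6% (thymus-rich) to 18.2% (neural-rich), below each class at E13.5 (23.2% to 31.0%).

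In the P0 esophagus globins were few and concentrated. The 25% of spots richest in epithelial markers such as Krt5 and Krt14 were set against the 25% richest in smooth and striated muscle markers. In the epithelium-rich class 10 of 10 markers had a UMI in at least 50% of spots. In a class chosen by smooth muscle markers alone 6 of 6 did, and the combined muscle class was not checked. Hba-a1 stood at 48.8 and 27.1 CPM in the epithelium-rich and 423 and 506 CPM in the muscle-rich spots of P0 replicates 1 and 2. Hba-a2 stood at 36.7 and 35.1 against 323 and 368 CPM. Hbb-bs stood at 95.7 and 76.4 against 849 and 1108 CPM, and Hbb-bt at 21.3 and 21.2 against 183 and 288 CPM. For each adult gene both epithelium-rich values lay below both muscle-rich values. Spots of neither class lay between them in summed globin in both replicates (1003 and 578 CPM). With smooth muscle markers alone, however, such spots (1302 and 1338 CPM) were above the muscle-rich ones (1085 and 777 CPM). Without the 10 spots richest in globin of each section, the muscle-rich class (739 and 421 CPM) was closer to them (619 and 412 CPM). The epithelium-rich class was the lowest in each of these settings.

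All 4 adult genes fell in the epithelium-rich spots (edgeR quasi-likelihood test on sums per section, Benjamini-Hochberg adjusted over 12689 genes), where 29.4% of genes tested were called lower. The log2 fold change was -3.37 ± 0.21 (SE) for Hba-a1 (10.4-fold lower, adjusted p = 2.88e-11), -3.04 ± 0.23 for Hba-a2 (adjusted p = 7.67e-10), -3.20 ± 0.23 for Hbb-bt (adjusted p = 4.52e-10) and -3.27 ± 0.20 for Hbb-bs (adjusted p = 2.6e-11). The embryonic genes did not pass the filter on low counts. The size rests in part on few spots: the 10 spots richest in globin held 44.9% and 61.2% of the globin UMIs of the sections. In P0 replicate 2, 1 muscle-rich spot held 37.1% of the section's globin UMIs and 59.5% of those of the muscle-rich class. The richest muscle-rich spot of replicate 1 held 23.1% of the globin UMIs of its class. With smooth muscle markers only the 4 fold changes were -2.17 to -1.88, and with the highest 10% of spots -4.50 to -3.94. Without the 10 richest spots per section they were -1.49 to -1.18 (edgeR adjusted p from 1.25e-11 to 1.36e-06). That setting was chosen after seeing the data and drops spots by the globin counts under test, so its p-values are descriptive only. In replicate 2 alone Hba-a1 differed by -4.20. Of spots with at least 1 globin UMI there were 93.4% and 93.9% among epithelium-rich and 97.8% and 92.4% among muscle-rich spots, so globin RNA was seen in most spots of both. The rates are at unlike depth: the median UMIs per spot were 39325 and 38936.5 in epithelium-rich against 20274 and 22535.5 in muscle-rich spots.

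**Figure D5:**
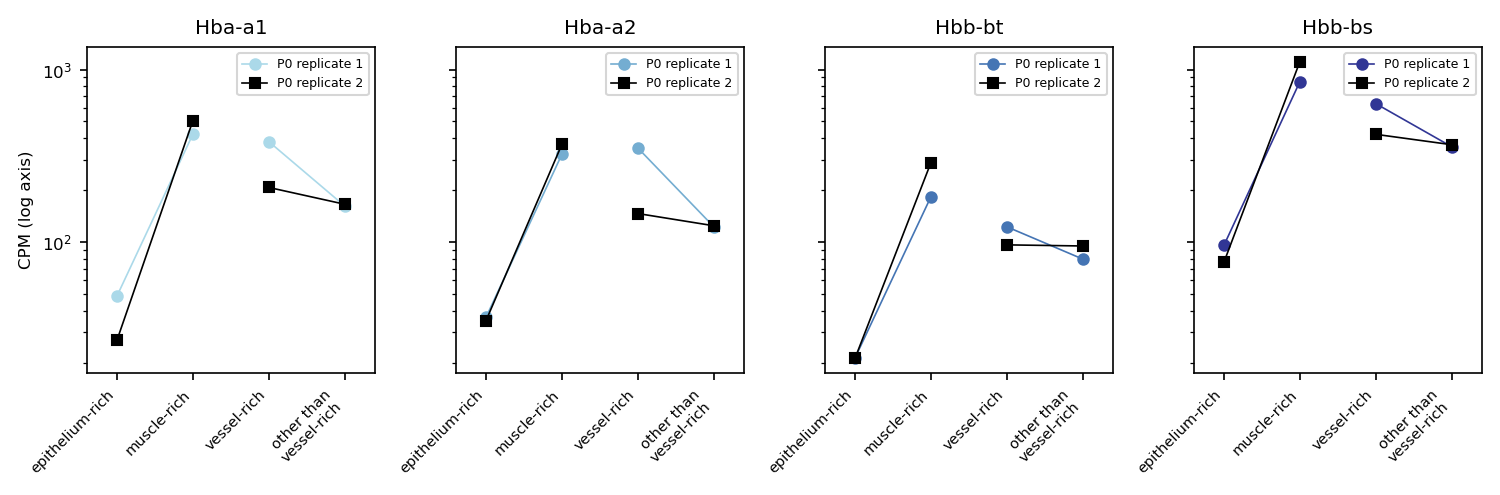
Level (CPM, log axis) of each adult globin in P0 replicate 1 (circles) and 2 (squares), in epithelium-rich against muscle-rich spots and in vessel-rich against other spots; lines join classes of a section. In both sections each gene sits lower on the epithelium side than on the muscle side, while the vessel-rich values lie closer to those of other spots, most of all in replicate 2.

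Markers of other cells moved with this difference. All 10 vessel markers fell in the epithelium-rich spots (median log2 fold change -2.11, against -0.04 over all genes), their summed level being 70.1 and 50.4 CPM there and 361 and 312 CPM in muscle-rich spots. Of 7 macrophage markers tested 6 fell, and their sum was 108 and 92.4 against 419 and 359 CPM. All 8 liver markers tested fell, with sums of 11.3 and 43.4 against 98.0 and 317 CPM; Ttr and Serpina1a were at 0 in the epithelium-rich spots of replicate 1. Their part in the globin difference was not tested. Of 5 platelet markers tested, Pf4 and Itgb3 fell and Ppbp, Itga2b and Gp1bb rose.

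The red cell lists held genes of both directions at P0, as did all genes, of which 26.7% were called higher and 29.4% lower. Of 8 membrane and skeleton genes tested 5 fell (median -1.83), including Ank1 (4.58 and 5.56 against 44.9 and 78.6 CPM) and Sptb (0 and 1.04 against 4.55 and 12.8 CPM), and 3 rose, the largest being Tspan33 (2.40 ± 0.28) and Epb41 (2.09 ± 0.19). Of 9 erythroid regulators tested 5 fell and 3 rose (median -1.19, the same with Gata2 at its bound). Gata2 had 0 UMIs in epithelium-rich spots, Cited4 fell by 2.55 on the log2 scale, and Sox6 (1.75 ± 0.24) and Bcl11a (0.85 ± 0.25) rose. Of 14 heme synthesis genes 3 fell and 6 rose (median 0.32): Alas2 fell by 1.54 and Urod by 0.94 on the log2 scale, and Cpox (1.69 ± 0.26) and Slc11a2 (1.44 ± 0.20) rose. Of 15 metabolism and maturation genes tested 1 fell and 7 rose (median 0.22), with Ube2o as the 1 that fell and Hemgn (9.44 and 9.03 against 0 and 1.28 CPM) and Isg20 (1.93 ± 0.30) as the largest that rose and Bnip3l (0.50 ± 0.12) as the smallest.

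The 25% of P0 spots richest in endothelial markers were also set against the rest. Hba-a1 stood at 382 and 207 CPM in vessel-rich and 162 and 166 CPM in other spots of replicates 1 and 2, and Hba-a2 at 351 and 146 against 123 and 124 CPM. Hbb-bs stood at 635 and 421 against 357 and 367 CPM, and Hbb-bt at 123 and 96.5 against 79.8 and 95.03 CPM. The vessel-rich value was the higher in both sections for all 4 genes, by little for Hbb-bt in replicate 2. Hba-a1 (0.59 ± 0.17 log2, edgeR adjusted p = 0.0147) and Hba-a2 (0.72 ± 0.21, edgeR adjusted p = 0.0162) rose, as did 15.6% of the 12881 genes tested. Hbb-bs (0.31 ± 0.14, edgeR adjusted p = 0.108) and Hbb-bt (0.13 ± 0.15, edgeR adjusted p = 0.562) did not pass.

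These calls depend on the fit and on few spots. With DESeq2, and with edgeR without the section block, 0 of 4 globins passed (lowest adjusted p 0.0963 and 0.0958). Without the 10 spots richest in globin of each section all 4 passed, at 0.91 to 1.14 log2 (edgeR adjusted p from 1.56e-08 to 4.08e-05). That setting was chosen after seeing the data and drops spots by the globin counts under test, so its p-values are descriptive only. The log2 ratio of Hba-a1 was 1.24 in replicate 1 and 0.32 in replicate 2 alone, and that of Hba-a2 1.51 and 0.23. All 8 liver markers tested (median 1.80) and 6 of 7 macrophage markers (median 1.19) also rose in vessel-rich spots, and their part was not tested. Of the red cell lists, 5 of 11 erythroid regulators tested rose and 2 fell, with Gata2 (3.95 ± 0.69) and Lmo2 (2.41 ± 0.24), which endothelium also expresses, as the largest, and Bcl11a (-0.76 ± 0.25) and Sox6 (-0.70 ± 0.21) as the 2 that fell. Of 8 membrane and skeleton genes 3 rose, among them Aqp1 (1.65 ± 0.17) and Gypc (1.34 ± 0.24), and 3 fell, among them Tspan33 (-1.41 ± 0.28) and Epb41 (-0.92 ± 0.15). Of all genes tested 15.9% were called lower, a share near that of the heme synthesis list, in which 3 of 14 fell: Slc11a2 (-1.05 ± 0.19), Cpox (-0.75 ± 0.24) and Alad (-0.59 ± 0.15). Of 16 metabolism and maturation genes 2 rose, among them Ube2l6 (0.78 ± 0.26), and 6 fell, led by Hemgn (-1.98 ± 0.45) and Isg20 (-1.38 ± 0.27).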

How the data were processed

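Per the file headers, the deposited matrices are Space Ranger 2.0.0 raw counts of UMIs per gene and spot, made by the authors against mm10 per the submitters' processing notes. The sources used here do not say how reads shared by near-identical genes were assigned. Positions on the grid came from the deposited tables, by which 0 spots lay off the tissue. Totals of kept spots ranged from 7356008 to 105834164 UMIs per section. Barcodes repeat between sections by slide design (2532 shared by the embryo sections), with correlations of adult globin levels of -0.20 there.

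The 7 globins, the gene lists and the tests were chosen with earlier results of these data known. The globins are always named; of each list, the 2 largest and 2 smallest changes among those passing were to be named, and the 5 genes most like the globins; some of these are not reported here. Spots with at least 500 UMIs were kept. Levels are CPM with exact Poisson 95% intervals, shares carry exact Clopper-Pearson 95% intervals, and both cover counting error only; UMIs without length scaling were used. Marker-rich classes were the highest 2% (embryo) or 25% (P0) of spots by mean log(1 + UMIs per 10000), used where at least 3 markers had a UMI in 50% of the class; at E13.5 the lung and thymus lists and at E16.5 the liver, platelet and granulocyte lists did not pass. The combined muscle class at P0 had no such check. A class is a mixture of cells. Stage and liver ratios used log2(CPM + 0.5) over genes with at least 20 UMIs. At P0, sums per section and class were fitted with edgeR 4.0.16 (quasi-likelihood, TMM, filterByExpr) with the section as block, leaving out the selecting markers. Residual degrees of freedom were 2 between regions and 1 for vessels, and prior ones, borrowed across genes, were 17.1 and 13.3. DESeq2 1.42.0 was an alternative. Both P0 replicates enter every fit as sums of the same section, which is where the pairing comes from. Gene IDs and positions were joined by symbol to RefSeq GRCm38.p6. The fits were tested on simulated data with known changes.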

Additional observations from a re-analysis of the deposited data

Results flagged for a closer look

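The embryonic share of globin UMIs in a class minus that of the other spots had opposite signs in the embryo sections for 5 of the 9 classes used in both. Heart-rich spots stood 7.68 percentage points above the rest at E13.5 and at -0.0106 points at E16.5. Neural-rich spots stood at 4.91 and -0.0178 points, skeletal muscle-rich spots at 2.83 and -0.0130 points, epithelium-rich spots at 7.65 and -0.00745 points, and bone-rich spots at 7.03 and -0.0179 points. The epithelium-rich value at E16.5 rests on 2 embryonic UMIs, and its counting interval, -0.0219 to 0.00695 points, includes 0. Skeletal muscle-rich spots held 1 embryonic UMI at E16.5, and neural-rich and bone-rich spots held 0. The exact upper bounds of the skeletal muscle-rich (0.0270%) and neural-rich (0.0210%) shares lie above the section's 0.0178%, so these 2 signs are within counting error. The bone-rich bound was 0.0150%. Each stage has 1 section and the difference was not tested. At E13.5 the rest includes the liver-rich spots, whereas the E16.5 section held no liver class. Over the 2738 E13.5 spots at 6 or more steps from a liver-rich spot the share was 27.7%. Heart-rich (27.4%), neural-rich (25.01%), skeletal muscle-rich (22.9%) and bone-rich (27.1%) spots were below that share, and epithelium-rich spots (27.7%) were level with it. The E13.5 excess of these classes was thus not seen against spots away from the liver. The part of the liver-rich spots in the opposite signs was not tested.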

How the results depend on the processing

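The embryo sections have no replicate, and the P0 depth of 8855 and 5698 globin UMIs limits what can be said of embryonic genes there. The E13.5 embryonic share of 20.1% became 28.3% with beta-like and 6.24% with alpha-like genes only, 26.1% as the median per spot, 25.6% without the 5% of spots richest in globin, and 27.7% at 6 or more steps from the liver, an alternative chosen after seeing the data. The median per spot was 26.7% over spots with at least 100 globin UMIs. At E16.5 the share of 0.0178% became 0.0122%, 0.0273%, 0 and 0.0208% under the same first 4 settings. The globin level without globin in the denominator was 31495 CPM at E13.5 and 53214 CPM at E16.5, and without the richest 5% of spots 19596, 31946 and, at P0, 349 CPM, from 30534, 50526 and 819 CPM. Hbb-bt was 27.2% of adult beta UMIs at 6 or more steps. Liver-rich minus other spots moved from -21.5 to -23.6 points with the highest 5% of spots and -30.6 with beta-like genes, and heart-rich spots from 7.68 to 6.68 and 11.3 points at E13.5 and from -0.0106 to -0.00778 and -0.00723 at E16.5; the liver class at E16.5 gave no value. Leaving out a P0 section gave embryonic shares of 0 to 0.0113%, levels of 775 to 863 CPM and Hbb-bt shares of 17.7% to 20.2%. All 4 adult globins were lower in epithelium-rich spots under each of 9 alternatives; with no replicate block all 4 were called, at -3.33 to -3.01 log2. Their size moved to -2.17 to -1.88 with smooth muscle markers only, to -4.50 to -3.94 with the highest 10% of spots and to -1.49 to -1.18 without the 10 spots richest in globin. In vessel-rich spots 2 were called, against 0 with DESeq2, 0 with no replicate block and 4 without the 10 spots richest in globin (chosen after seeing the data). Where P0 sections were left out there were log2 ratios only, with no test: -4.20 to -3.07 between regions and 0.02 to 1.51 for vessels. Of 61 alternative values 36 stayed within their error or threshold. Among them, levels and shares with a P0 section left out were bound to stay. With 2 sections, each value lies within the SD of their mean by arithmetic. The causes were not tested.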

Other observations

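Some E16.5 spots held Hba-x nearly alone among the embryonic genes. A spot had 22 Hba-x and 1 Hbb-y UMIs in 1079 globin UMIs (an embryonic share of 2.13%), and another 13 Hba-x and 0 Hbb-y UMIs in 416 (3.13%). The spot with the most embryonic UMIs had 14 of Hba-x, 11 of Hbb-y and 4 of Hbb-bh1 in 7127 globin UMIs. These spots were chosen after their values were seen.

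The theta-type genes Hbq1a and Hbq1b stood at 1.39 and 1.61 CPM at E13.5 and 1.07 and 0.586 CPM at E16.5. Hbb-bh2 had 0 UMIs in the embryo sections. Myoglobin, Mb, the oxygen store of muscle, went from 24.4 to 99.2 CPM between the embryo sections and stood at 3.51 and 3.81 CPM at P0. Cytoglobin, Cygb, of fibroblast-like cells, stood at 11.5 and 23.7 CPM in the embryos and at 58.4 and 65.8 CPM at P0. Neuroglobin, Ngb, stood at 1.01 and 1.84 CPM in the embryos and at 15.3 and 12.4 CPM in the esophagus.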
